A study of Mus musculus with 10 samples.

Results

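Long non-coding RNA (lncRNA) genes give transcripts that are spliced and often polyadenylated like mRNA but are not translated into a known protein. Of the 57010 genes in the deposited table for mouse splenic CD8+ T cells, 11599 are annotated as lncRNA, and 593 of those lie on an autosome and carry a gene name that is neither a predicted-gene number nor a clone name. The 108 described here are the ones among the 593 with at least 500 counts summed over all 10 libraries, and the other 485 fell below that sum. The members were thus chosen by their summed count, so that their levels are given as a description, while the direction of any difference between groups was not part of the choice. Just inside the threshold were Phtf1os with 530 counts, C78859 with 535 and Sros1 with 547, and just outside it were Tomm6os with 453, Hopxos with 432 and Runx2os1 with 419. By its title, the study concerns DUSP2, a nuclear phosphatase of MAP kinases, and the effector programming of CD8+ T cells.

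Each of 5 mice gave 1 rested and 1 activated library. The 3 conditional knockout (cKO) mice were Dusp2fl/fl-E8I-cre+/-, meaning that both Dusp2 alleles carry loxP sites and that cre is driven by an enhancer of Cd8a active in mature CD8+ T cells. The 2 control mice were Dusp2fl/fl-E8I-cre-/-, with the same floxed alleles and no cre. Activated cells were cultured for 24 h with beads carrying anti-CD3 and anti-CD28, which engage the T cell receptor and its co-receptor, and rested cells for the same time without beads. Cre was present in every cKO mouse and absent from both controls, so loss of Dusp2 and presence of cre cannot be told apart. Control mouse 1 and cKO mice 1 and 2 were male, control mouse 2 and cKO mouse 3 female, and no age is given. The titles of the 2 libraries of cKO mouse 3 have the states exchanged against their library names, and the title of the rested one also calls it a control against its genotype label. Library names and genotype labels were followed, and without this mouse 34 members were higher and 59 lower on activation in the mean of both genotypes, as with it.

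Named lncRNA genes are a mixed class. Some are hosts whose introns or exons are processed into small RNAs: small nucleolar RNAs (snoRNAs), which guide chemical modification of ribosomal RNA, or microRNAs, which pair with mRNAs through their seed and lower their output. Others, such as Malat1 and Neat1, stay in nuclear bodies, some sit at imprinted loci where they silence neighbouring genes on 1 parental chromosome, and many are named only after a gene that they face in antisense or divergent orientation. The libraries were made with a kit for polyadenylated RNA, so the values below are of the host transcripts and not of the mature small RNAs.

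Library totals ran from 51203786 to 65135435 counts, and the members took 0.569 to 0.727% of them. A count of 3 corresponded to 0.0461 to 0.0586 CPM (counts scaled to library size, here the unscaled total). All other CPM use library sizes adjusted for composition by TMM scaling. Dusp2 stood at 92.6 ± 6.78 CPM (SD, n = 2) in rested control and 26.0 ± 1.87 CPM (n = 3) in rested cKO cells, and at 295 ± 4.87 CPM against 51.8 ± 5.00 CPM after activation, as the labels say. Of 8 genes listed as an activation check, 5 rose (Il2ra, Tnfrsf9, Irf4, Cd69 and Myc, which T cells are known to induce) and 3 fell, among them Klf2 and Il7r, known from naive T cells. All 7 CD8 T cell markers were present, at a summed 3400 to 3570 CPM in rested and 2870 to 3090 CPM in activated libraries. The 8 B cell markers summed to 280 to 361 CPM at rest and 226 to 282 CPM after activation, with 98.3% of the counts from Ighm, while Ms4a1, Pax5 and Fcer2a had at most 6 counts in any library. The 6 CD4 and regulatory T cell markers ran from 20.2 to 27.8 CPM at rest and from 62.5 to 92.6 CPM after activation. After activation most counts came from Ctla4 and Zbtb7b. At rest Ikzf4 had 375 to 902 counts, Ctla4 296 to 426 and Zbtb7b 121 to 401. Cd4 and Foxp3 had at most 66 and 48 counts in a library. Of the 9 myeloid markers (10.1 to 13.3 CPM, then 14.7 to 18.7 CPM) Cd68 gave 84.1% of the counts, Siglech was at 0, and Csf1r had at most 8 counts. Of the 9 erythroid and platelet markers (25.2 to 29.5 CPM, then 16.6 to 23.2 CPM) Itga2b gave 99.9%, with Ppbp and Hbb-bt at 0. The 9 NK and innate-like markers overlapped between states (3.09 to 8.19 and 2.70 to 8.51 CPM), with Ncr1 at most at 4 counts. The part of these cells in the results below was not tested.

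Compared per length, in the deposited FPKM (counts scaled to gene length and library total), the members spanned mean levels from 0.155 to 219 FPKM, with a median of 3.73 FPKM. Of the 108, 82 reached 1 FPKM and 34 reached 10 FPKM. Mir142hg, the host of the blood-cell microRNA miR-142, was the highest at 249 ± 10.1 FPKM (SD, n = 5 mice) in rested and 189 ± 21.4 FPKM in activated cells. Malat1, a nuclear-speckle RNA, followed at 262 ± 37.1 and 160 ± 18.2 FPKM, and the averages of these 2 genes over all libraries, 219 and 211 FPKM, differed by less than the spread between mice. Next came Gas5, a snoRNA host, at 69.3 ± 3.68 FPKM at rest and 156 ± 10.3 FPKM after activation. It was followed by AW112010 (68.2 ± 9.28 and 90.0 ± 12.4 FPKM), Snhg1 (24.0 ± 0.972 and 94.3 ± 5.11 FPKM), AU020206 (42.0 ± 5.00 and 65.7 ± 9.12 FPKM), AI506816 (35.0 ± 4.07 and 71.0 ± 3.97 FPKM), Snhg8 (46.8 ± 2.79 and 55.9 ± 3.78 FPKM), Zfas1 (23.9 ± 1.18 and 56.1 ± 3.09 FPKM) and H2-K2 (51.7 ± 2.13 and 25.1 ± 3.67 FPKM). Over both states AU020206 averaged 53.8 FPKM and Snhg8 51.4 FPKM, with AI506816 between them, closer than the spread between mice, and their order differed between the states. H2-K2 is a member of the MHC class I family, and its reads may be shared with near-identical family copies. In counts the class was concentrated: Malat1 and Neat1 together held 34.8% of all member counts, and the 10 members with most counts held 66.5%.

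Activation changed most of the 108 genes. Relative to rested cells, 34 were higher and 59 lower after activation, averaged over both genotypes, and 15 did not pass the test (edgeR quasi-likelihood F test, Benjamini-Hochberg adjusted p below 0.05 over 18966 genes). Of all genes tested, 34.8% were called higher and 34.3% lower, so the share of members called higher (31.5%) is near that of all genes and the share called lower (54.6%) is above it. The median log2 fold change was -0.42 over the members, beside -0.30 over the 2318 other lncRNA genes tested (424 higher, 832 lower) and 0.01 over the 12753 protein-coding genes tested. With a change of at least 2-fold as well, 18 members were higher and 24 lower, against 14.7% and 10.2% of all genes. In 30 members every activated library was above every rested one, and in 53 every activated library was below (29.0% and 28.1% of all genes tested). In bulk RNA, fewer cells of a type and less RNA per cell cannot be told apart. Split by abundance, of the 65 members with a mean of at least 5 CPM, 30 were higher, 32 lower and 3 not called. Of the 43 below 5 CPM, 4 were higher, 27 lower and 12 not called. Precision was lower below 5 CPM (median SE 0.17, against 0.074). The same split was not made over all genes, so whether it is particular to the members is not known.

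**Figure D1:**
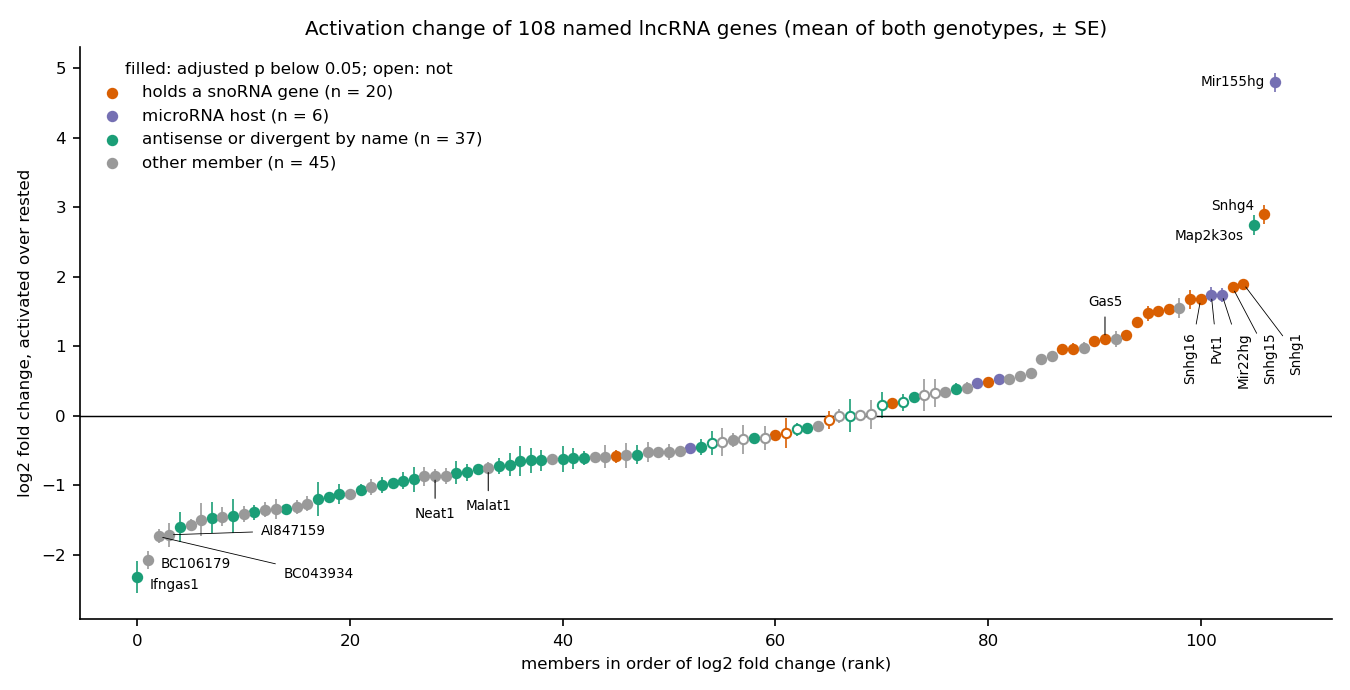
The 108 members in order of their log2 fold change (activated over rested, mean of both genotypes, bars ± SE), coloured by kind, each member counted once in the order of the key. Members holding a snoRNA gene lie mostly at the right end and those with an antisense name mostly at the left, with Mir155hg (4.80) and Ifngas1 (-2.32) at the ends.

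MicroRNA hosts by name were 6 of the members, and 5 of them rose with activation while 1 fell (median log2 fold change 1.13). Counted by position instead, 12 members hold a microRNA gene within their span, of which 5 rose, 5 fell and 2 did not pass the test, with a median log2 fold change of 0.03. The mature microRNAs that the named hosts and Lncppara hold are shown for their seeds (bases 2 to 8, in capitals, 5′ to 3′, RefSeq sequences matched by name), since the seed sets which mRNAs a microRNA can pair with. Pvt1, counted among the hosts, had no microRNA gene within its span in the deposited table.
miR-155-5p: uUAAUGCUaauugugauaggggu
miR-22-3p: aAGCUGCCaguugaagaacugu
miR-17-5p: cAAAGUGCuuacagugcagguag
miR-20a-5p: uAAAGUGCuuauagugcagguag
miR-18a-5p: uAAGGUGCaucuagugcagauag
miR-19a-3p: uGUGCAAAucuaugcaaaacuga
miR-19b-3p: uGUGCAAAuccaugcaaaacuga
miR-92a-3p: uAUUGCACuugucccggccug
miR-15a-5p: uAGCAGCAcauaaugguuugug
miR-16-5p: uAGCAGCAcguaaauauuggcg
miR-142a-5p: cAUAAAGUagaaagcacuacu
miR-142a-3p: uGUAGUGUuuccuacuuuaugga
let-7b-5p: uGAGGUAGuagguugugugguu
let-7c-5p: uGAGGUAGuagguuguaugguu
Of these 14, miR-17 and miR-20a share the seed AAAGUGC, miR-19a and miR-19b the seed GUGCAAA, miR-15a and miR-16 the seed AGCAGCA, and let-7b and let-7c the seed GAGGUAG. Each of these pairs comes from 1 host: Mir17hg for the first 2 pairs, Dleu2 for miR-15a and miR-16, and Lncppara for the let-7 pair.

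Mir155hg (chr16:84500055-84512133, mm39, plus strand), whose miR-155 is known to be needed for CD8+ T cell responses, had the highest log2 fold change of the members. Its level was 2.49 and 1.85 CPM in rested control cells and 3.11, 2.40 and 1.83 CPM in rested cKO cells. After activation it was 57.4 and 63.8 CPM in control and 70.1, 60.4 and 71.9 CPM in cKO cells. Every activated library was far above every rested one, a 27.9-fold difference (log2 fold change 4.80, SE 0.13, Benjamini-Hochberg adjusted p 6.43e-10 in edgeR). Mir22hg (chr11:75352365-75357502), the host of miR-22, rose from between 14.4 and 24.6 CPM to between 49.5 and 69.6 CPM (log2 fold change 1.74, SE 0.10). It overlaps Tlcd2 on the same strand, which rose by 1.82 on the log2 scale, so reads of the 2 genes may be shared. Pvt1 (chr15:61909817-62249945), a long locus next to Myc, rose from 8.08 and 4.47 CPM in rested control and 8.11, 8.82 and 6.64 CPM in rested cKO cells to 22.1 and 22.9 CPM and to 25.1, 23.9 and 22.2 CPM (log2 fold change 1.74, SE 0.11).

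The remaining hosts moved less. Dleu2 (chr14:61840265-61919822), the host of miR-15a and miR-16, which hold back cell cycle genes, rose by 0.52 on the log2 scale (SE 0.05), from 21.1 to 28.2 CPM at rest to 28.7 to 36.9 CPM after activation. Mir17hg (chr14:115280311-115284159), which carries the miR-17-92 cluster known to promote lymphocyte growth, rose by 0.48 (SE 0.04), from 56.6 to 65.7 CPM to between 79.2 and 89.9 CPM. In both, the rested and activated libraries did not overlap. Mir142hg (chr11:87646399-87648102) fell by 0.47 (SE 0.06), from 422 and 437 CPM in rested control and 467, 428 and 423 CPM in rested cKO cells to 331 and 293 CPM and to 306, 365 and 278 CPM, again without overlap. Lncppara (chr15:85537757-85591728), which holds the let-7c-2 and let-7b genes but is not named as a host, fell by 1.57 (SE 0.09). Its rested libraries lay between 8.58 and 9.55 CPM and its activated ones between 2.98 and 3.31 CPM. The let-7 family is known for restraining growth and effector genes in T cells.

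SnoRNA hosts mostly rose. Of 17 members in this list, 14 rose, 1 fell and 2 did not pass the test, with a median log2 fold change of 1.16, against -0.42 over all members. Counted by position instead of by name, 20 members hold a snoRNA gene within their span, of which 16 rose and 2 fell, and all 9 members that hold at least 2 snoRNA genes rose (log2 fold changes 0.96 to 2.90). Among the 88 members without a snoRNA gene 18 rose and 57 fell. In all, 49 snoRNA genes lay within members, 41 of them on the strand of the member: Gas5 held 10, Snhg1 8 and Snhg12 5.

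SnoRNA host genes are known for starting transcription within a run of C and T, as ribosomal protein genes do. The 30 bases before and 30 from the annotated start are shown for 6 of the 9 hosts of at least 2 snoRNA genes, the 5 with the smallest p and Gas5, the most abundant, with the longest run of C and T near the start (from 5 bases before to 15 after it) in capitals. Gas5 has 2 RefSeq starts and is shown at the second, where the run is longer (6 bases, against 3 at the first).
Snhg1: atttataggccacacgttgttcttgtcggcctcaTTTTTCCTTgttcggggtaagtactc
Snhg12: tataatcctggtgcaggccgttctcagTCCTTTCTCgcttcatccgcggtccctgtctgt
Snhg16: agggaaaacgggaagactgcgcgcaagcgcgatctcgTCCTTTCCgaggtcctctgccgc
Snhg5: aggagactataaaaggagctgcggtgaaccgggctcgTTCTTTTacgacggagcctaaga
Gas5: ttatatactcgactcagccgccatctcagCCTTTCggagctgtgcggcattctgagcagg
Zfas1: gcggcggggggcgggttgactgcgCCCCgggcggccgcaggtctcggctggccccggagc
They are RefSeq sequences of GRCm38.p6, in order chr19:8723457-8723516 (plus), chr4:132308648-132308707 (plus), chr11:116671630-116671689 (plus), chr9:88522868-88522927 (minus), chr1:161035136-161035195 (plus) and chr2:167062904-167062963 (plus). The run is 9 bases long in Snhg1 and Snhg12, 8 in Snhg16, 7 in Snhg5, 6 in Gas5 and 4 in Zfas1. Of the 6 shown, only Snhg12 and Gas5 have the annotated start inside the run. Counted from the start, the run begins at base 5 in Snhg1 and base 8 in Snhg16 and Snhg5. In Zfas1 it begins at base -6 and ends before the start. A run of at least 7 bases stood in 10 of 19 windows of members holding a snoRNA gene (52.6%), in 28.3% of the windows of other members and in 19.1% of the 32851 promoter windows of the table. Among members holding at least 2 snoRNA genes it stood in 4 of 10 windows (40.0%). In the 300 bases around the starts (250 before, 50 after), the E-box CACGTG, the letters bound by MYC and related factors, stood in 13 of 79 member windows (16.5%) and in 7.15% of all windows. It stood in 6 of 29 windows of members that rose (20.7%) and 6 of 39 of those that fell (15.4%). Members holding a snoRNA gene had it in 3 of 19 windows (15.8%), and members without one in 16.7%. Those holding at least 2 snoRNA genes had it in 0 of 10 windows. The AP-1 letters TGANTCA were in 5.06% of member windows and 7.81% of all. Both motifs were searched on both strands, and 67 of 107 member names had a window.

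The levels of these hosts were tight among mice. Snhg1 (chr19:8700801-8703811, mm39) was at 75.0 and 75.6 CPM in rested control and 78.0, 70.8 and 70.6 CPM in rested cKO cells, and at 254 and 296 CPM and 284, 270 and 285 CPM after activation. No rested library came near an activated one, and the log2 fold change was 1.90 (SE 0.05, Benjamini-Hochberg adjusted p 4.06e-12 in edgeR). Snhg15 (chr11:6475295-6478841), with the smallest p of all members, rose from 31.0 and 33.3 CPM in control and 32.6, 34.0 and 39.3 CPM in cKO cells to 114 and 124 CPM and to 118, 120 and 133 CPM (log2 fold change 1.85, SE 0.04). Gas5 (chr1:160861992-160866116), named for its rise in growth-arrested cells, was at 286 and 261 CPM in rested control and 295, 301 and 277 CPM in rested cKO cells. After activation it was at 546 and 619 CPM and at 625, 610 and 661 CPM, above every rested library (log2 fold change 1.10, SE 0.05, adjusted p 4.41e-10 by the same edgeR test).

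The other hosts named by p showed the same separation of states. Snhg12 rose from 34.6 to 39.5 CPM at rest to 101 to 109 CPM after activation (log2 fold change 1.54), and Snhg16 from 12.5 to 13.2 CPM to between 36.8 and 46.8 CPM (1.68). Snhg5 rose from 19.9 to 21.8 CPM to between 55.1 and 67.0 CPM (1.51), and Zfas1 from 66.3 to 76.0 CPM to between 150 and 172 CPM (1.16). The row Snhg4 with the highest rise among hosts (log2 fold change 2.90, SE 0.14) went from 4.91 to 6.81 CPM to between 32.7 and 51.5 CPM. It overlaps a second row of that name annotated as protein-coding, which rose by 0.34, so how reads were divided between the 2 rows is uncertain. Snhg8, with a level per length of 46.8 FPKM at rest, rose by only 0.18 (SE 0.05, adjusted p 0.0101 by the edgeR test), and its rested (39.4 to 45.0 CPM) and activated (44.4 to 51.8 CPM) libraries overlapped. Without control mouse 1 its value was 0.15 and the adjusted p 0.0754. The 3 hosts that did not rise, named after their values were seen, were Snhg20, which fell by 0.28 with no overlap, and Snhg9 (-0.06) and Snhg10 (-0.25), which did not pass the test. Snhg9 overlaps Rps2, a ribosomal protein gene that rose by 1.11. AI506816, a high member holding 1 snoRNA gene, rose by 0.96 (SE 0.08).

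SnoRNAs work in complexes with the proteins of the C/D type (Fbl, the methylase, with Nop56, Nop58 and Snu13) or the H/ACA type (Dkc1, the pseudouridine synthase, with Nop10, Nhp2 and Gar1). All 8 of these genes rose, with log2 fold changes from 1.13 to 2.41, beside 39.2% of all protein-coding genes tested. Gar1 went from 14.9 to 17.2 CPM to between 71.4 and 91.0 CPM, Nop58 from 58.0 to 59.5 CPM to between 272 and 366 CPM (log2 fold changes 2.33 and 2.41), and Fbl from 53.3 to 55.5 CPM to between 171 and 214 CPM (1.80).

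**Figure D2:**
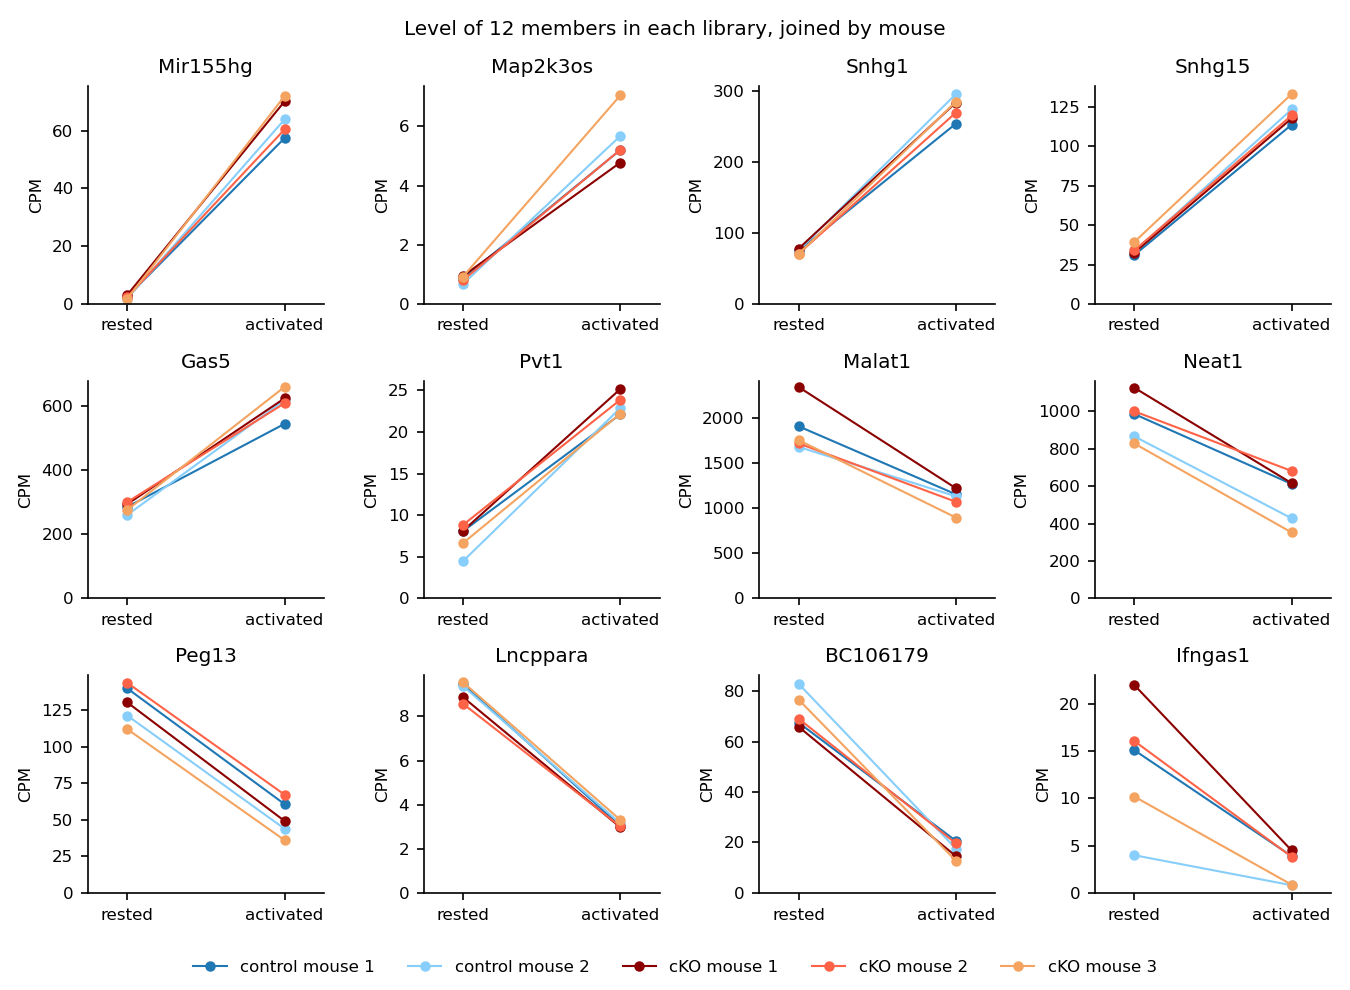
CPM of 12 members in each of the 10 libraries, with the rested and activated library of a mouse joined (blue, control mice; red to orange, cKO mice). In 11 panels all 5 mice keep the states apart, and in Ifngas1 the rested range (3.99 to 22.0 CPM) overlaps the activated one (0.815 to 4.50 CPM).

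The 2 nuclear-body lncRNA genes both fell in counts per gene. The kit was for polyadenylated RNA, so forms of either RNA without a poly(A) tail may be missed. Different forms of a gene were not told apart. Malat1 (chr19:5845717-5852704), a nuclear-speckle RNA, was at 1903 and 1675 CPM in rested control and 2337, 1714 and 1750 CPM in rested cKO cells. After activation it was at 1151 and 1129 CPM and at 1218, 1068 and 894 CPM, below every rested library (log2 fold change -0.76, SE 0.09, Benjamini-Hochberg adjusted p 1.61e-05 in edgeR). Neat1 (chr19:5874736-5895898), the scaffold of paraspeckles, was at 985 and 865 CPM in rested control and 1125, 999 and 827 CPM in rested cKO cells. It stood at 611 and 428 CPM and at 616, 681 and 352 CPM after activation (log2 fold change -0.87, SE 0.10), with the 2 female mice lowest in both states. Of 8 paraspeckle protein genes 7 rose and none fell, beside 39.2% and 38.6% of all protein-coding genes tested. Pspc1 rose by 1.10 and Sfpq by 0.58 on the log2 scale, while Nono, which did not pass the test, was at -0.03.

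The 3 imprinted lncRNA genes did not move together. Peg13 (chr15:72677449-72682173), which lies within Trappc9, was at 140 and 121 CPM in rested control and 130, 144 and 112 CPM in rested cKO cells, and at 60.8 and 43.9 CPM and 49.2, 67.3 and 36.1 CPM after activation. The states did not overlap (log2 fold change -1.35, SE 0.10), and Trappc9, read from the same strand, fell by 0.88. Airn (chr17:12960198-13079023), the antisense RNA that silences Igf2r on the paternal chromosome, fell by 0.62 (SE 0.08), from 10.5 to 14.2 CPM to between 7.57 and 8.50 CPM, and Igf2r fell by 0.46. Kcnq1ot1 (chr7:142757195-142850286), the silencing RNA of the Kcnq1 domain, rose by 0.39 (SE 0.08), with overlapping libraries (12.7 to 21.1 CPM at rest, 17.6 to 24.9 CPM after activation). Among the genes tied to p53 or growth control, Pvt1 and Gas5 rose and Neat1 fell, and Lncpint, a p53-induced RNA, fell by 0.34 (SE 0.10, adjusted p 0.00756 by the edgeR test). Lncpint's libraries overlapped (6.19 to 8.28 CPM at rest, 5.04 to 6.64 CPM after activation). Tested with limma on the FPKM values, its log2 change was -0.17 with an adjusted p of 0.0757.

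Ifngas1 (chr10:118337939-118392477), an lncRNA beside Ifng described in effector T cells and also called NeST, had the lowest log2 fold change of the members, while Ifng itself rose. Ifngas1 stood at 15.1 and 3.99 CPM in rested control and 22.0, 16.1 and 10.2 CPM in rested cKO cells. After activation it was at 3.90 and 0.815 CPM and at 4.50, 3.83 and 0.875 CPM (log2 fold change -2.32, SE 0.23, Benjamini-Hochberg adjusted p 2.08e-05 in edgeR). It was lower after activation in 5 of 5 mice, but the rested library of female control mouse 2 lay within the activated range, and both female mice were the lowest of their genotype in both states. Ifng, which lies 56142 bases away, rose from 0.154 to 0.331 CPM to between 5.64 and 12.8 CPM (log2 fold change 5.00). Of the 6 members listed as described in immune cells, Mir155hg and Mir17hg rose, and Ifngas1, Neat1, Malat1 and Mir142hg fell.

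Members named for a facing gene mostly fell. Of 41 whose names end in os, as or ot, with or without a number, 7 rose, 29 fell and 5 did not pass the test (median log2 fold change -0.64). Gas5 ends so by chance, and without it 6 of 40 rose and 29 fell. The 6 with the smallest p ran in both directions. Gas5 and Zfas1, described above, rose. Oip5os1 (chr2:119424757-119437983), also called Cyrano, whose RNA is known to direct decay of miR-7, fell from between 257 and 288 CPM to between 113 and 152 CPM (log2 fold change -0.96, SE 0.05). Mypopos fell by 1.34 (40.0 to 50.6 CPM at rest, 14.2 to 21.6 CPM after activation), and Arhgap27os3 by 1.17 (63.0 to 79.2 CPM, then 27.7 to 38.0 CPM). Map2k3os (chr11:60811733-60822769), which lies 90 bases from the MAP kinase kinase gene Map2k3 on the other strand, rose from 0.857 and 0.674 CPM in rested control and 0.944, 0.800 and 0.922 CPM in rested cKO cells to 5.20 and 5.68 CPM and to 4.78, 5.21 and 7.05 CPM. The log2 fold change was 2.74 (SE 0.15), every activated library was above every rested one, and Map2k3 rose by 1.81.

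Other members at the ends of the ranking are known mainly by an accession-like or antisense name. Rab26os, a short transcript that holds a snoRNA gene, rose from 0.772 to 1.42 CPM to between 2.96 and 3.58 CPM (log2 fold change 1.67), while Rab26, which it faces, was at -0.06 and did not pass the test. BC048644 rose from 1.24 to 1.98 CPM to between 4.12 and 4.98 CPM (1.55). On the falling side BC106179 (chr16:23039406-23044234) overlaps an end of St6gal1 (chr16:23043490-23179100) in antisense and lies mostly outside it. BC106179 went from 67.5 and 82.9 CPM in rested control and 65.8, 69.1 and 76.6 CPM in rested cKO cells to 20.6 and 17.5 CPM and to 14.5, 19.7 and 12.7 CPM. This is a 4.22-fold fall without overlap (log2 fold change -2.08, SE 0.13), and St6gal1, a sialyltransferase gene, fell by 1.53. BC043934 fell by 1.74 (52.5 to 56.9 CPM, then 12.02 to 19.7 CPM), AI847159 by 1.71 (5.38 to 7.41 CPM, then 1.33 to 2.94 CPM) and BC051226 by 1.41 (9.86 to 12.04 CPM, then 3.45 to 4.75 CPM). Lef1os1, which faces Lef1, a transcription factor gene of naive T cells, fell by 1.39 (7.96 to 8.80 CPM, then 2.64 to 3.73 CPM), and Lef1 fell by 1.23. Slc6a19os (log2 fold change -1.60), Chaer1 (-1.50), Arhgap27os2 (-1.47), AA388235 (-1.45) and Sros1 (-1.44) fell from levels of at most 4.52 CPM. Separate rested and activated libraries were a condition for naming these members.

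The members were set beside their nearest tested protein-coding gene. In 84 of 108 pairs both genes were called, and in 55 of the 84 (65.5%) both went the same way. The share was 26 of 37 (70.3%) where the gene spans overlap and 29 of 47 (61.7%) where they lie apart. Among other autosomal lncRNA genes the corresponding share was 755 of 1053 (71.7%), with 74.3% for overlapping and 69.1% for separate spans. Pairs that rose together included Pvt1 with Myc, 47594 bases apart (Myc 3.29 on the log2 scale), and Snhg1 with Slc3a2, 68 bases apart on opposite strands (Slc3a2, an amino acid transporter subunit, 2.09). Lef1os1, Arhgap27os3, BC106179 and Slc6a19os fell with the gene they overlap, the last with Slc6a19 at -2.04.

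Opposite directions occurred both near and far, and the following pairs were chosen after their values were seen. AW011738 fell by 1.03 while Isg15, an interferon-induced gene 2474 bases away, rose by 1.66. Atad3aos fell by 0.91 while Atad3a, 49 bases away, rose by 1.60. Junos fell by 0.66 while Jun, which it overlaps, rose by 0.55. Snhg6 rose by 1.35 while Mcmdc2, which it overlaps, fell by 1.95 from a level of at most 1.94 CPM. Of the 108 members 83 overlap another tested gene, 57 of them a gene on the other strand. The kit keeps the strand, but its use in counting is not given in the sources used here, and reads of overlapping antisense pairs may not be told apart. Among the 83 overlapping members 27 rose and 44 fell, and among the 25 that overlap no tested gene 7 rose and 15 fell. A further limit is naming: 10 members carry the name of a protein-coding gene or pseudogene, and among the other 98, 30 rose and 53 fell.

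**Figure D3:**
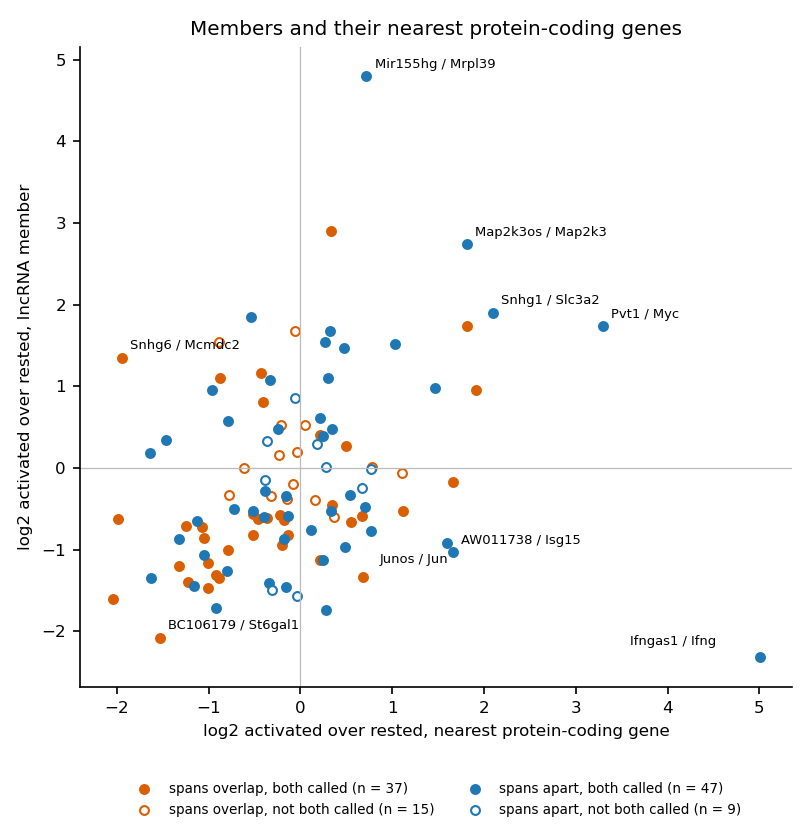
Log2 fold change on activation of each member (vertical) against that of its nearest tested protein-coding gene (horizontal), orange where the gene spans overlap and blue where they do not, filled where both genes were called. Of the 84 filled points, 55 lie in the upper right or lower left, and Ifngas1 with Ifng lies farthest into the lower right.

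The response to activation was also read in each genotype. In control mice 33 members were higher and 49 lower (all genes tested: 28.5% and 27.6%), and in cKO mice 33 were higher and 59 lower (31.5% and 31.9%). The comparisons share no mouse, though with 2 control and 3 cKO mice they differ in precision. In both genotypes 80 members were called in the same direction and none in opposite directions, 2 were called in control mice alone and 12 in cKO mice alone. The log2 fold changes had the same sign in 102 of 108 members, with a Pearson r of 0.981 across members, which share libraries and are not independent replicates. Mir155hg was at 4.81 in control and 4.79 in cKO mice, Snhg1 at 1.87 and 1.94, Gas5 at 1.09 and 1.12, and Malat1 at -0.64 and -0.87. The difference of the responses (the genotype by activation interaction) passed the test in no member and in 0.0% of all genes tested by the quasi-likelihood test of edgeR. At an unadjusted p below 0.05 there were 2 members (0 without the sex term), against 2.74% of all genes, and neither DESeq2 nor limma called a member. The estimate was negative in 70 of 108 members, beside 1362 of 2318 other lncRNA genes and 9975 of all 18966 genes. The 5 members with the smallest p were Kcnq1ot1 (interaction -0.40, 95% interval -0.77 to -0.03), AA386476 (-0.92, -1.82 to -0.03), Dleu2 (-0.21, -0.44 to 0.03), Gt(ROSA)26Sor (-0.23, -0.50 to 0.03) and Dancr (0.39, -0.08 to 0.85), each with an adjusted p of 1.0. Kcnq1ot1 rose by 0.59 in control mice and was at 0.19 in cKO mice.

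**Figure D4:**
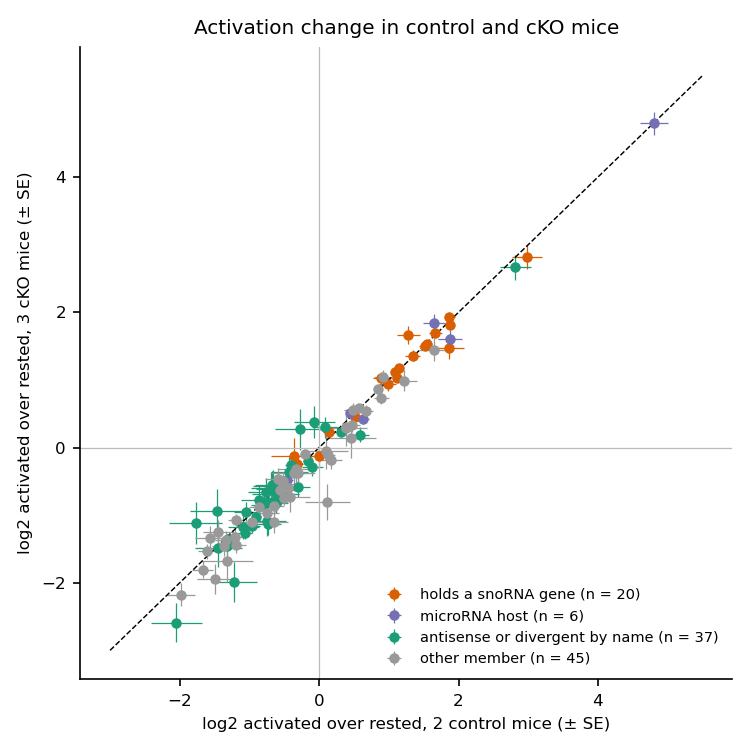
Log2 fold change on activation of the 108 members in the 2 control mice (horizontal) and the 3 cKO mice (vertical), with bars of ± SE and a dashed line of equality. The points follow the line, with r = 0.981 across members and a largest difference of 0.92 (AA386476).

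Between genotypes no member passed the test with the filter on low counts. In rested cells the quasi-likelihood test of edgeR called 0 members higher and 0 lower in cKO, beside 0.0264% and 0.0158% of all genes tested (0.0422% in either direction). An unadjusted p below 0.05 was reached by 5 members, against 4.13% of all genes, and DESeq2 and limma also called 0. In the edgeR fit without the sex term, 0 members reached it. The log2 differences ran from -0.29 to 0.72, with a median of 0.03 and a median SE of 0.15. In activated cells 0 members were called higher and 0 lower by edgeR, again beside 0.0264% and 0.0158% of all genes tested (0.0422% in either direction). Here 6 members had an unadjusted p below 0.05, against 6.02% of all genes, and without the sex term 2 members did. DESeq2 and limma called 0, and the log2 differences ran from -0.86 to 0.67 with a median of 0.00. Without the low-count filter edgeR called 1 member at rest (Ifngas1, higher) and 3 in activated cells (Mir22hg higher, AI480526 and BE692007 lower), in a fit that called 204 and 211 of all genes. The summed NK and innate-like markers were higher in cKO in both states without overlap (5.51 to 8.19 against 3.09 to 4.84 CPM at rest, 6.49 to 8.51 against 2.70 to 5.13 CPM after activation). Over all libraries Klre1 gave 30.2% of their counts, Klra3 19.7%, Klri2 16.4% and Ncr1 0.241%. Which cells these counts came from, and their part in the differences between genotypes, was not tested. Small differences are within what these data allow: a p that misses the threshold does not show that the genotypes are alike.

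The rested members with the smallest p were all higher in cKO. AW112010, an interferon-inducible transcript of immune cells, was at 129, 121 and 105 CPM in cKO and 113 and 88.7 CPM in control mice (log2 difference 0.18, 95% interval 0.05 to 0.31), with overlapping groups. AU020206 was at 158, 142 and 142 CPM in cKO and 136 and 112 CPM in control mice, without overlap (0.22, 0.06 to 0.38). Rab10os (0.23, 0.05 to 0.42), Snhg15 (0.16, 0.03 to 0.28) and Ifngas1 (0.72, 0.07 to 1.38) had overlapping groups, and all 5 had an adjusted p of 1.0 by the edgeR test.

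Of the activated members with the smallest p, 3 were higher and 2 lower in cKO. AU020206 was at 231, 225 and 206 CPM in cKO and 210 and 159 CPM in control mice (log2 difference 0.23, 95% interval 0.07 to 0.39, adjusted p 0.724 by edgeR's test), and the groups overlapped. Mir22hg was at 60.8, 64.7 and 69.6 CPM in cKO and 51.3 and 49.5 CPM in control mice, without overlap (0.41, 0.11 to 0.71, adjusted p 0.760 by the same test). Its overlapping neighbour Tlcd2 differed by 0.46 in the same direction. Oip5os1 was at -0.18 (-0.32 to -0.04), Slc6a19os, at less than 1 CPM in every activated library, at -0.86 (-1.59 to -0.14), and Phtf1os at 0.67 (0.08 to 1.26). Slc6a19, which Slc6a19os overlaps, stood at 75.3 to 145 CPM in activated libraries and was at -0.46, so reads of the pair may be shared. Phtf1os stood at 1.16, 1.45 and 0.908 CPM in cKO and 0.686 and 0.740 CPM in control mice. By role, the 17 snoRNA hosts had a median difference of 0.07 at rest and 0.09 after activation, with 11 and 16 of 17 above 0. Above 0 were 63 and 55 of the 108 members and 9733 and 9623 of all 18966 genes. Genes measured in the same libraries are not independent replicates, and no count of signs was tested. Malat1 and Neat1 were at -0.15 and -0.02 after activation. None of these passed the test.

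**Figure D5:**
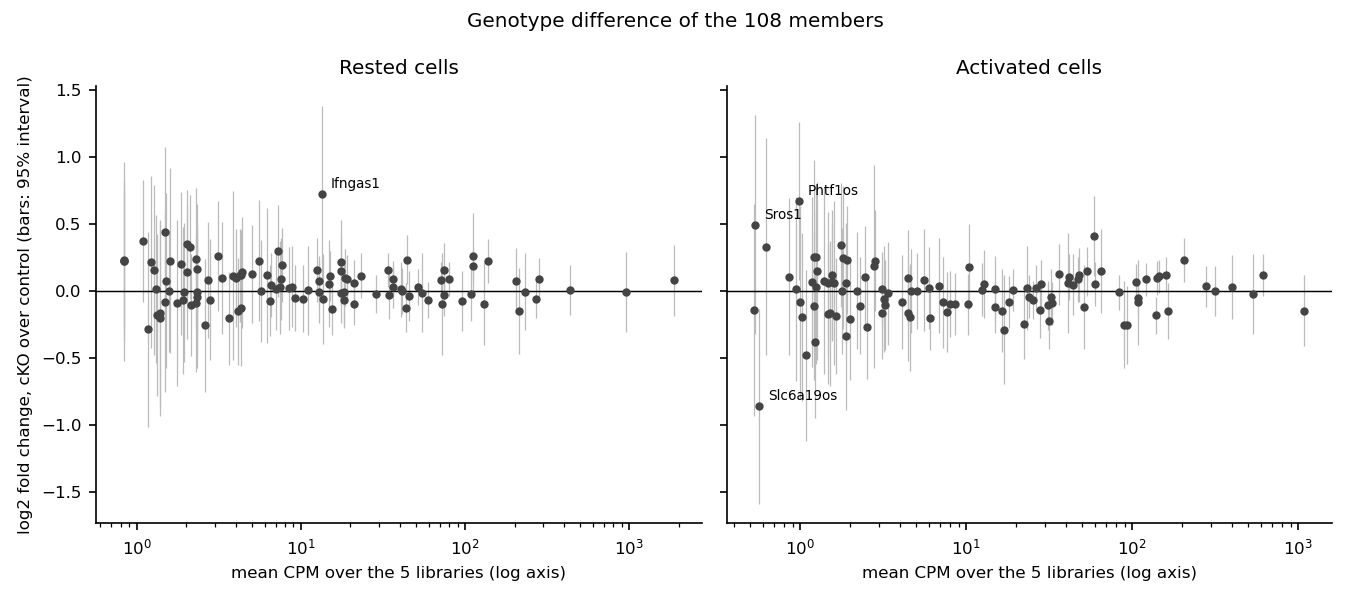
Log2 difference between cKO and control mice for each member (vertical, bars are 95% intervals) against its mean CPM (horizontal, log axis), in rested and activated cells. No member passed the adjusted test, and the widest intervals belong to members near 1 CPM.

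Other genes of lncRNA and small RNA handling were read from listed sets. Among all protein-coding genes tested, 39.2% were higher and 38.6% lower after activation, and no list was tested against these shares. Of 10 microRNA processing genes 3 rose and 4 fell: Drosha, the nuclear cutting enzyme, and Xpo5, the exporter, rose by 0.48 and 0.62. Dicer1, the cytoplasmic cutting enzyme, fell by 0.29 and its partner Prkra by 1.11, from at most 5.32 CPM. Of 16 genes of the nuclear exosome and its poly(A) tail targeting factors, which degrade many nuclear lncRNAs, 11 rose and 2 fell. Exosc2 rose by 1.58, Exosc10 by 0.90, Dis3 by 1.39 and Mtrex, the helicase, by 0.85, while Zfc3h1 fell by 0.44. Nonsense-mediated decay, which is known to remove many spliced snoRNA host RNAs, had 6 of 12 genes higher and 3 lower. There Rbm8a rose by 1.11 and Upf1, the helicase, by 0.31, and Smg1, the kinase that acts on it, fell by 0.53, from 1316 to 1450 CPM to between 823 and 1061 CPM. In these lists no gene passed the test between genotypes in either state.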

How the data were processed

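The data are 10 bulk RNA-seq libraries of splenic CD8+ T cells. The kit was Illumina's stranded one for mRNA, per the labels' protocols. Subread, FastQC and MultiQC were run on build mm39, per the submitters' processing notes, while no source used here gives their versions, their settings or the use of strand in counting. The deposited count values are whole numbers per gene with no normalization found in them. Dividing a count by its column sum and by gene length plus 1 gave back the deposited FPKM to within 9.40e-07 of its value, so FPKM carry no further reads.

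The test was edgeR 4.0.16 (R 4.3.3), with libraries scaled by TMM and genes kept by filterByExpr on the groups (18966, all 108 members among them). A robust quasi-likelihood model with a mean per group and a sex term was fitted to all 10 libraries, which share 1 estimate of the spread (biological coefficient of variation 9.14%, 5 residual degrees of freedom, median prior 7.95). Benjamini-Hochberg adjustment ran over all genes tested. SE was computed back from the test. Sex coincides with the number that starts the mouse names. CPM in the text are counts over library sizes scaled by TMM, except for the CPM of the count floor, which use unscaled library totals. The mice are separate animals, and libraries of a group differed beyond counting noise (chi-square 9.23 to 46.0 per degree of freedom). Floors cover counting error only.

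The members and the lists were chosen with earlier results of these data known. Members named are the 10 of highest FPKM, up to 6 per role list by smallest p, the 12 highest and 12 lowest fold changes among called members that reach 1 CPM in either state and do not overlap, the 5 with the smallest p per genotype comparison, those next to the threshold, and nearest genes of those named for fold change. Up to 3 genes are named per partner list by smallest p; further ones (among them Nono, Zfc3h1, Mtrex, Dicer1 and Upf1) were picked with values in view, and some listed genes are not reported here.

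The libraries of a mouse, rested and activated, pair by animal: after group means were taken off, they correlated at 0.247 to 0.544 over the 5 mice, the 2 control mice giving 1 value, while limma's consensus correlation within mice, with the sex term fitted, was -0.135. Sequences are RefSeq (GRCm38.p6), and strands were looked up by identifier for 102 members. Alternatives were DESeq2 1.42.0 (size factors, Wald test), limma 3.58.1 on log2(FPKM + 0.5), no filter and a stricter filter on low counts (5 CPM in 2 libraries), no sex term, mouse blocks, a 2-fold minimum, and leaving out each mouse. The steps were tested on simulated data. Python 3.11.15 made tables and figures.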

Additional observations from a re-analysis of the deposited data

Results flagged for a closer look

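In 3 members the mice of the genotypes moved in opposite directions on activation, every control mouse one way and every cKO mouse the other, with an interaction that did not pass edgeR's quasi-likelihood test (adjusted p 1.0 in each). Gt(ROSA)26Sor, the locus used for transgene insertion, changed by 0.16 and 0.10 on the log2 scale in the control mice and by -0.04, -0.07 and -0.21 in the cKO mice (interaction -0.234, SE 0.12). Mirt1 changed by 0.19 and 0.15 in the control mice and by -0.14, -0.07 and -0.34 in the cKO mice (interaction -0.35, SE 0.20). Phtf1os, the member nearest to the count threshold, changed by -0.14 and -0.01 in the control mice and by 0.46, 0.52 and 0.13 in the cKO mice (interaction 0.448, SE 0.38). Among 108 members in 2 and 3 mice such patterns can arise by chance, and the groups of 2 and 3 mice were too small to screen for a library far from the others.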

How the results depend on the processing

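No member called in a comparison changed direction there under the alternatives that fitted it, while directions of members not called were not counted. Of 156 recomputed counts 144 stayed within 1.5 times their value. With a 2-fold minimum the counts of higher and lower members were 18 and 24 for the mean of both genotypes, 18 and 22 in control mice and 19 and 26 in cKO mice. Under the stricter filter, which fits only 70 members, 35 members were lower in the mean and 34 in cKO mice. Without a low-count filter, Ifngas1 was called higher in rested cKO cells (1 member, log2 difference 0.72, adjusted p 0.000135), and in activated cells 1 was called higher, Mir22hg (0.41, adjusted p 0.000206), and 2 lower, AI480526 and BE692007. The cause was not tested. That fit called 204 and 211 of all genes, against 8 and 8 with the filter. Leaving out 1 mouse at a time gave 33 to 35 members higher and 53 to 59 lower in the mean, 31 to 33 and 32 to 49 in control mice, where the lowest count of 32 came without control mouse 2, 31 to 33 and 45 to 57 in cKO mice, and 0 for each genotype and interaction count. In the fits with 1 control mouse it is taken to vary as the other groups do. The fit with a replicate block by mouse gave 34 higher and 59 lower in the mean, 33 and 49 in control and 33 and 59 in cKO mice, and 0 in the rest, so the pairing by animal changed no count. Of 685 values for single members 681 kept their side of the threshold. The exceptions were Snhg8 without control mouse 1, Lncpint with limma on FPKM, and Ifngas1 and Mir22hg without a filter. The lowest level of a member, 0.311 CPM, lies above 3 counts (0.0461 to 0.0586 CPM). Ifng, a neighbour and not a member, came nearer to that floor at rest. Precision was lower at low levels: between genotypes in activated cells the median SE was 0.246 for the 43 members below 5 CPM and 0.105 for the other 65.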

Other observations

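Members not described above were read for their values, and the ones named here were chosen after those were seen. Of the 22 members with only an expressed-sequence or cDNA name, 6 rose and 12 fell. The abundant AI662270 rose by 0.85 on the log2 scale (75.4 to 89.7 CPM at rest, 133 to 162 CPM after activation) and AI504432, beside the potassium channel gene Kcna3, by 0.61 (106 to 112 CPM, then 142 to 183 CPM). BE692007 fell by 1.32 (205 to 268 CPM, then 61.6 to 105 CPM) and AI480526 by 1.27 (199.6 to 228 CPM, then 63.5 to 111 CPM), each without overlap of the states. Lockd, 3579 bases from the cell cycle inhibitor gene Cdkn1b, fell by 1.35 while Cdkn1b fell by 1.62. Foxd2os fell by 1.07 beside Foxd2 (-1.05), and Gimap1os by 1.00 beside Gimap1 (-0.79), a gene of lymphocyte survival. Short RNA genes that are not usually polyadenylated were low: Bc1 ran from 1.03 to 2.21 CPM and the row Rmrp from 0.851 to 1.78 CPM over all libraries, and neither passed the test.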
